A study of Mus musculus with 6 samples.

Results

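The cell cycle and checkpoint genes are followed here across 6 single-colour arrays of mouse macrophages. Members were chosen by gene symbol alone: every probe whose symbol starts with Cdk, Cdc or Mcm followed by a digit, E2f, Ccna, Ccnb, Ccnd, Ccne, Aurk, Plk, Bub, Chek or Gadd45, plus Mki67, Ube2c and Foxm1. The rule took 84 of 10076 probes, which stand for 84 of the 8841 genes named on the array. The cells were thioglycollate-elicited macrophages, recruited by a sterile irritant, of female C57BL/6 mice aged 6 weeks. Of the 6 groups 3 lacked the inhibitor TSA (No treatment, LPS, GW3965 + LPS). The other 3 were the same with it added (TSA, TSA + LPS and, with all agents, TSA + GW3965 + LPS). Trichostatin A, or TSA, blocks histone deacetylases. LPS is the bacterial lipopolysaccharide, and GW3965 activates the liver X receptors. Each group had 1 array, the labels give no dose or time, and nothing says that separate cultures or mice were used. The p-values therefore measure only the spread between these arrays, which may be technical.

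Cells pass through the division cycle under kinases of the CDK family, which need a cyclin partner to be active and are held back by CDK inhibitors. D-type cyclins act early in the first gap phase, E2F factors then switch on genes of DNA replication, the MCM proteins form the helicase that opens the replication origins, and a burst of A- and B-type cyclin activity with the Aurora and Polo-like kinases drives mitosis. Checkpoint kinases and the Gadd45 proteins respond to DNA damage and other stress. Macrophages elicited in this way are differentiated cells that divide little in culture, and several of these genes also answer to inflammatory signals.

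Values are intensities on a linear scale, with the median of each array between 0.981 and 0.987. Values under the 25th percentile of an array, its floor (0.198 to 0.245), were set to that floor before log2. A limma model in which the effects of the 3 agents add up was fitted to 4806 genes that stood at or above the array's median on at least 2 of 6 arrays. A gene "rose" or "fell" when its Benjamini-Hochberg adjusted p over all these genes was under 0.05, two-sided. Since every group has 1 array, a gene's own error has only the 2 residual degrees of freedom of this model. It measures how far the effects fail to add up, not the spread of replicates. The limma fit combines it with a variance trend over all genes tested (prior degrees of freedom 15.1), which carries most of the weight. Of the 84 members 52 were tested, and 37 of them stood at or above the median on all 6 arrays. The other 32 were not tested, 30 of them under the median on every array and 2 (Cdc6 and Cdkl2) above it on 1 array only. Some tested members passed the level filter through a single arm of the design: Ccnd2 through arrays with LPS, Cdkn3 through arrays with TSA, and Chek2, Cdk18, Cdc42ep3 and Mcm5 through arrays without LPS. For these a difference between arms follows in part from the filter. Where arms are said not to overlap, this describes the readings of that gene. How many of all genes separate likewise was not counted.

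The macrophage label was checked on marker genes. Of 8 macrophage markers on the array 7 stood at or above the median on all 6 arrays. The other, Adgre1, read 0.730 with No treatment and 1.06 to 2.84 on the other arrays. The summed intensity of the 8 was 802 to 1141 without LPS and 1059 to 1353 with it, and most of it came from Lyz2. Of 6 T cell markers Cd3e and Cd8a were under the floor on all 6 arrays, while Cd4 (1.17 to 2.16) and Cd2 (1.01 to 2.38) were above the median on all 6. Of 7 neutrophil markers Mpo was under the floor on all 6 arrays. Camp read 0.172 and 0.0692 without LPS and 0.834 to 2.54 with it, and Prtn3 read 0.108 to 0.138 without TSA and 1.18 to 4.24 with it. Ltf went the other way from Camp, at 0.771 and 1.11 without LPS and 0.306 to 0.435 with it. Ngp read 0.415 to 0.960 over all arrays. The summed intensity of 7 neutrophil markers was 24.0 and 38.0 without LPS and 51.3 to 83.0 with it, and most of it came from S100a8. That of 5 mesothelial and fibroblast markers was 6.46 and 10.2 without LPS and 11.2 to 12.6 with it, mostly from Dcn, and that of 4 mast cell markers 11.8 and 13.8 against 16.7 to 20.0. Krt19, of the mesothelial and fibroblast markers, went the other way, at 0.780 and 1.16 without LPS and 0.380 to 0.518 with it. The sums of 5 B cell, 6 T cell and 4 eosinophil markers were 8.10 to 10.1, 3.60 to 5.28 and 3.80 to 5.97 over all arrays. Of the B cell markers Cd79a (3.55 to 4.50), Cd79b (1.62 to 2.02) and Cr2 (1.70 to 2.24) were above the median on all 6. The part of these cells in the results was not tested. In such bulk samples fewer cells of a type and less RNA per cell cannot be told apart.

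With LPS some members rose and others fell by large amounts, and most members of the replication and mitosis roles read too low to test. Cyclin D2, the CDK inhibitor Cdkn1a and Gadd45b rose, and Gadd45a, Gadd45g and the checkpoint kinase Chek2 fell. The proliferation marker Mki67 also rose, in cells whose other mitotic genes were mostly not tested. By limma, 7 of 52 tested members rose with LPS and 9 fell. Among all 4806 genes 12.5% rose and 6.76% fell. The rising share of 13.5% was close to that of all genes and the falling share of 17.3% was above it. Chek2, Cdk18 and Cdc42ep3, which fell, passed the level filter only through arrays without LPS, and Ccnd2, which rose, only through arrays with it. These calls follow in part from the filter. With the filter on the mean over all 6 arrays 7 of 48 members rose and 6 fell, beside 12.7% and 6.33% of all genes. The median effect of the 52 tested members was -0.28 on the log2 scale, beside 0.04 for all genes. Quantile normalization moved the median of all genes from 0.04 to -0.10, and 6 members then rose and 13 fell, beside 10.8% and 10.5% of all genes in that setting. Without the No treatment array 4 members rose and 5 fell, beside 8.66% and 3.02% of all genes.

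**Figure D1:**
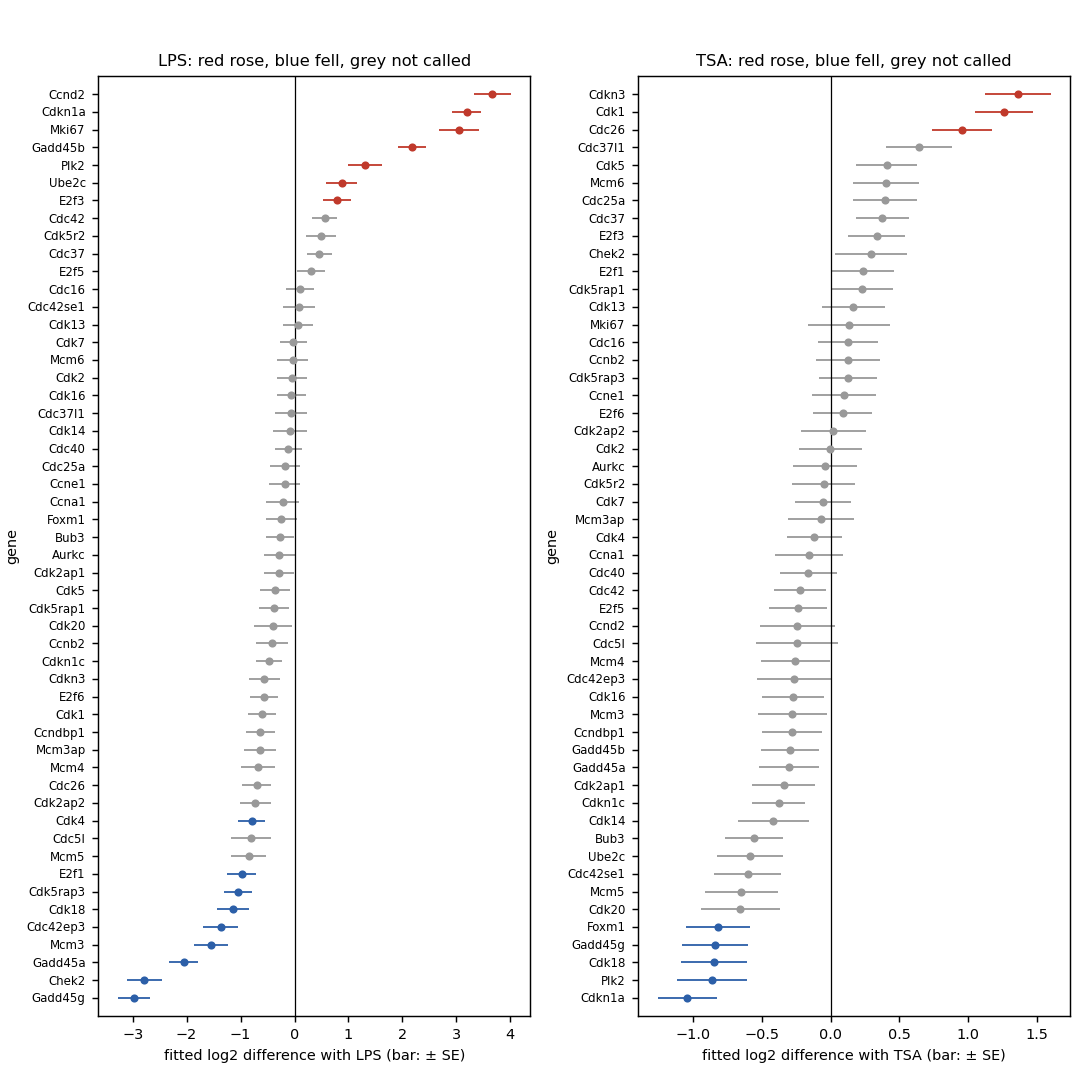
Fitted log2 difference (horizontal axis) of the 52 tested members with LPS (left) and with TSA (right), ordered by size, with bars for the standard error; red genes rose, blue genes fell and grey genes were not called by limma. With LPS the effects run from -2.98 for Gadd45g to 3.67 for Ccnd2, and with TSA from -1.04 for Cdkn1a to 1.36 for Cdkn3.

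Among cyclins, Ccnd2, the D-type cyclin that pairs with Cdk4 and Cdk6, gave the largest fitted LPS effect of the tested members, a rank that rests on its readings near the floor without LPS. It read 0.223 with No treatment, under the floor, and 0.324 with TSA. It read 4.81 with LPS, 2.49 with TSA + LPS, 1.84 with GW3965 + LPS and 1.51 with TSA + GW3965 + LPS. All 4 arrays with LPS were above both arrays without it, and among those 4 the array with LPS alone was the highest. Ccnd2 reached the array median only with LPS, so the separation from the arrays without it follows in part from the level filter. Ccnd2 rose by 3.67 on the log2 scale (SE 0.34, limma adjusted p = 2.16e-07, higher in 2 of 2 pairs), and by 1.81 with values floored at the array median, where the effects of Mki67 (3.05), Gadd45g (-2.98), Cdkn1a (2.93), Gadd45b (2.18) and Gadd45a (-2.05) were larger. The single pair LPS against No treatment was at least 21.1-fold apart. The other D-type cyclins were not tested: Ccnd1 was under the floor on all 6 arrays and Ccnd3 read 0.152 to 0.484. Ccna1, Ccnb2 and Ccne1 were tested and not called for LPS or TSA, with LPS effects of -0.22, -0.42 and -0.18. The mitotic cyclin Ccna2 read 0.605 to 0.854 and was not tested.

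Cdkn1a encodes p21, which binds and blocks cyclin-CDK complexes and is a classical target of p53. It read 1.46 with No treatment and 0.689 with TSA. It read 13.9 with LPS, 6.06 with TSA + LPS, 7.73 with GW3965 + LPS and 4.28 with TSA + GW3965 + LPS. The arrays with and without LPS did not overlap, and in each of the 3 pairs the array with TSA was the lower. Cdkn1a rose with LPS by 3.19 (SE 0.26, limma adjusted p = 6.03e-08, higher in 2 of 2 pairs). The inhibitor Cdkn1c was not called, with an LPS effect of -0.47 and readings of 32.0 to 57.3. Cdkn2a, Cdkn2c and Cdkn2d were not tested, the last with readings of 0.362 to 0.922. Cdkn1b, Ccnb1 and Plk3 were not analysed here.

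The 3 Gadd45 genes, small stress-induced proteins that bind p21 and the mitotic kinase Cdk1, did not move together. Gadd45b read 15.3 with No treatment and 9.15 with TSA, against 57.2 with LPS, 50.1 with TSA + LPS, 50.0 with GW3965 + LPS and 51.3 with TSA + GW3965 + LPS. It rose by 2.18 (SE 0.26, limma adjusted p = 4.76e-06, higher in 2 of 2 pairs). Gadd45g read 17.0 with No treatment and 6.72 with TSA, against 1.82 with LPS, 1.001 with TSA + LPS, 1.41 with GW3965 + LPS and 1.12 with TSA + GW3965 + LPS. So the same arrays that were high for Gadd45b were low for Gadd45g, with no overlap between the arms for either gene. Gadd45g fell by 2.98 (SE 0.29, limma adjusted p = 5.29e-07, lower in 2 of 2 pairs). Gadd45a, the member best known from DNA damage, read 22.8 and 25.03 without LPS and 4.55 to 7.65 with it, and fell by 2.05 (SE 0.27, limma adjusted p = 1.71e-05).

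The promoters of these genes are shown because the family split under LPS. The sequences are from the RefSeq promoter table (GRCm38.p6) and end at the base before the annotated transcription start. Capitals mark CCAAT boxes (CCAAT on either strand), which lie 86, 100 and 78 bases before the start in Gadd45a, Gadd45b and Gadd45g. Gadd45a is on the minus strand of chr6:67037408-67037527, Gadd45b on the plus strand of chr10:80929971-80930090 and Gadd45g on the plus strand of chr13:51846555-51846674.
Gadd45a: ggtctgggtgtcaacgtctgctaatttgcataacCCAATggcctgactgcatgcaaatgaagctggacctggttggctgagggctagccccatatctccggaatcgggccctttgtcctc
Gadd45b: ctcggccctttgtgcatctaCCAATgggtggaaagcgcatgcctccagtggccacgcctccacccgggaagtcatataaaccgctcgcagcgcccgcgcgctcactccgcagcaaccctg
Gadd45g: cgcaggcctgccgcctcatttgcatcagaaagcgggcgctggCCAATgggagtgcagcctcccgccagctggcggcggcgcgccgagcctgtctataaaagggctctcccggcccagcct

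Chek2, a kinase that relays DNA double-strand breaks to the cell cycle machinery, read 1.46 with No treatment and 1.67 with TSA. With LPS it was under the floor at 0.171, and it read 0.260 with TSA + LPS, 0.276 with GW3965 + LPS and 0.338 with TSA + GW3965 + LPS. Both arrays without LPS were above all 4 with it. Chek2 reached the array median only without LPS, so this separation follows in part from the level filter. Chek2 fell by 2.78 (SE 0.32, limma adjusted p = 3.20e-06, lower in 2 of 2 pairs), and by 0.67 with values floored at the array median (adjusted p = 0.0246). The related kinase Chek1 read 0.055 to 0.274 and was not tested. Plk2, a stress-responsive Polo-like kinase, read 23.3 and 20.4 without LPS and 101 with LPS, 28.7 with TSA + LPS, 77.8 with GW3965 + LPS and 51.8 with TSA + GW3965 + LPS. It rose with LPS by 1.31 (SE 0.31, limma adjusted p = 0.00545), and by 0.80 without the No treatment array (adjusted p = 0.118), 0.59 without the LPS array (adjusted p = 0.157) and 2.02 without the TSA + LPS array.

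Mki67 encodes the Ki-67 protein that coats mitotic chromosomes and is widely used to mark cycling cells. It read 1.65 with No treatment and 4.41 with TSA. It read 26.7 with LPS, 18.8 with TSA + LPS, 26.4 with GW3965 + LPS and 18.5 with TSA + GW3965 + LPS. Every array with LPS was above both without it. Mki67 rose by 3.05 (SE 0.37, limma adjusted p = 6.06e-06, higher in 2 of 2 pairs), by 2.09 without the No treatment array and by 4.02 without the TSA array. This value averages over TSA, and Mki67 was the 1 member called in the test of whether the LPS and TSA effects add up. Of 14 members in the mitosis role 5 were tested, and Mki67 and Ube2c, which helps the anaphase-promoting complex tag proteins for destruction, rose with LPS. Ube2c rose by 0.88 (SE 0.29, limma adjusted p = 0.0427), and its adjusted p was 0.381 without the No treatment array, 0.108 without the TSA array and 0.277 without the LPS array. Aurka, Bub1 and Cdc25c were under the floor on all 6 arrays, Plk1 read 0.051 to 0.229 and Cdc20, the activator of the anaphase-promoting complex, 0.182 to 0.389. Foxm1, the factor that switches on genes of late cycle phases, was not called for LPS, with an effect of -0.24.

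**Figure D2:**
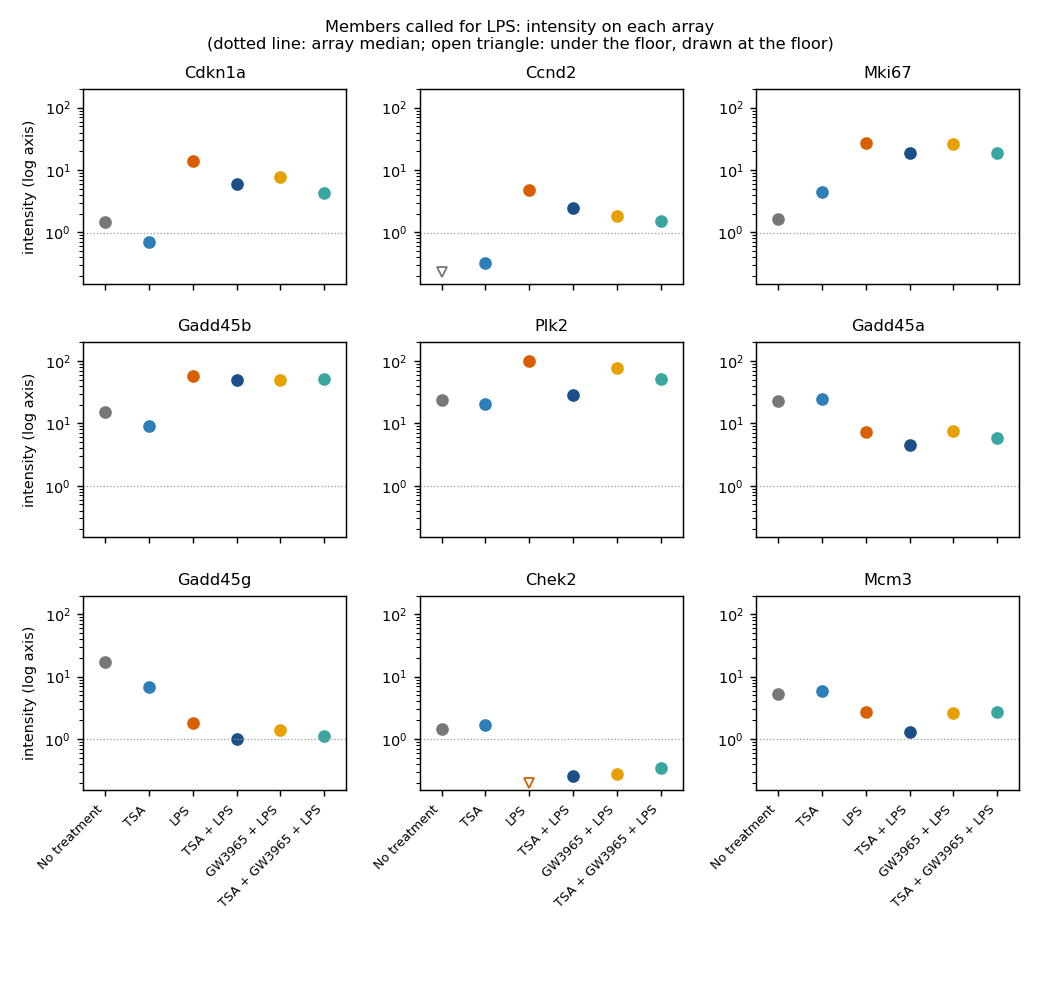
Intensity (log axis) of 9 members called for LPS on each of the 6 arrays, 1 point per array and no replicates; the dotted line is the array median and an open triangle is a reading under the floor, drawn at the floor. Ccnd2, Cdkn1a, Mki67 and Gadd45b are higher on all 4 arrays with LPS, Gadd45a, Gadd45g, Chek2 and Mcm3 are lower, and Plk2 is nearest to its levels without LPS on the TSA + LPS array, at 28.7.

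Among the E2F factors and the kinases of the main cycle, E2f1 and Cdk4 fell with LPS and E2f3 rose. E2f1, an activating E2F factor, read 3.14 and 3.37 without LPS and 1.48 to 1.84 with it, and fell by 0.98 (SE 0.27, limma adjusted p = 0.016). Its adjusted p was 0.237 without the No treatment array and 0.0836 without the TSA array. E2f3, named after its values were seen, rose by 0.79 (SE 0.25, limma adjusted p = 0.0359), with an adjusted p of 0.0735 after quantile normalization and 0.202 without the No treatment array, and over 0.05 without each of the other arrays except TSA + LPS. E2f5 and E2f6 were not called. Cdk4, the partner of the D-type cyclins, read 26.5 and 22.2 without LPS and 13.4 to 18.7 with it. It fell by 0.80 (SE 0.25, limma adjusted p = 0.0312), with an adjusted p of 0.0590 to 0.234 without each array but TSA + LPS. Cdk2 and Cdk7 were not called, at -0.05 and -0.02, Cdk1 was not called for LPS at -0.61, and Cdk6 read 0.111 to 0.257 and was not tested.

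Of 11 replication licensing genes 4 were tested. Mcm3, a subunit of the replicative helicase, read 5.18 with No treatment, 5.93 with TSA, 2.72 with LPS, 1.32 with TSA + LPS, 2.64 with GW3965 + LPS and 2.67 with TSA + GW3965 + LPS. It fell by 1.55 (SE 0.31, limma adjusted p = 0.00123, lower in 2 of 2 pairs), and by 0.97 without the TSA + LPS array, its lowest. The helicase subunits Mcm4, Mcm5 and Mcm6 were not called, with LPS effects of -0.68, -0.85 and -0.03. Without the LPS array Mcm4 and Mcm5 passed, at -1.17 and -1.28, and Mcm5 passed without the GW3965 + LPS array, at -0.85 (adjusted p = 0.0492). Both genes read lowest with TSA + LPS, at 1.32 and 0.407. Between No treatment and LPS, Mcm4 went from 2.57 to 2.49 and Mcm5 from 1.20 to 0.947. With values floored at the array median the Mcm5 effect was -0.19 (limma adjusted p = 0.541). Mcm7 was under the floor on all 6 arrays and Mcm2 on 5.

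Among members of other roles, Cdk18, Cdk5rap3 and Cdc42ep3 fell with LPS. Cdk18, a kinase related to Cdk16, fell by 1.14 (SE 0.30, limma adjusted p = 0.00991), Cdk5rap3, a protein first found as a partner of the Cdk5 activator, by 1.05 (adjusted p = 0.00667) and Cdc42ep3, an effector of the GTPase Cdc42, by 1.37 (adjusted p = 0.00545). Without the No treatment array the adjusted p was 0.230, 0.0948 and 0.315, and Cdk18 had 0.0519 without the LPS array. Cdc42ep3 had an adjusted p of 0.0822 with values floored at the array median. Cdc42 itself read 59.3 and 56.7 without LPS and 78.7 to 114 with it and was not called (effect 0.56, SE 0.23, limma adjusted p = 0.107).

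By size alone, 6 of 50 measured members were at least 2-fold higher in LPS than in No treatment and 8 were lower, beside 14% and 6.05% of all measured genes. A gene counts as measured in a pair when the brighter array is at or above its own median. In TSA + LPS against TSA, 4 of 53 were higher and 9 lower, beside 9.2% and 6.37%. The lower genes of that pair included Mcm3, Mcm4, Mcm5 and Cdc6, which loads the helicase on origins. Cdc6 read 1.20 with TSA and 0.307 with TSA + LPS. All of these read lowest on the TSA + LPS array. Between No treatment and LPS, Mcm3 went from 5.18 to 2.72, Mcm4 from 2.57 to 2.49 and Mcm5 from 1.20 to 0.947. Single pairs have no replicate check.

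**Figure D3:**
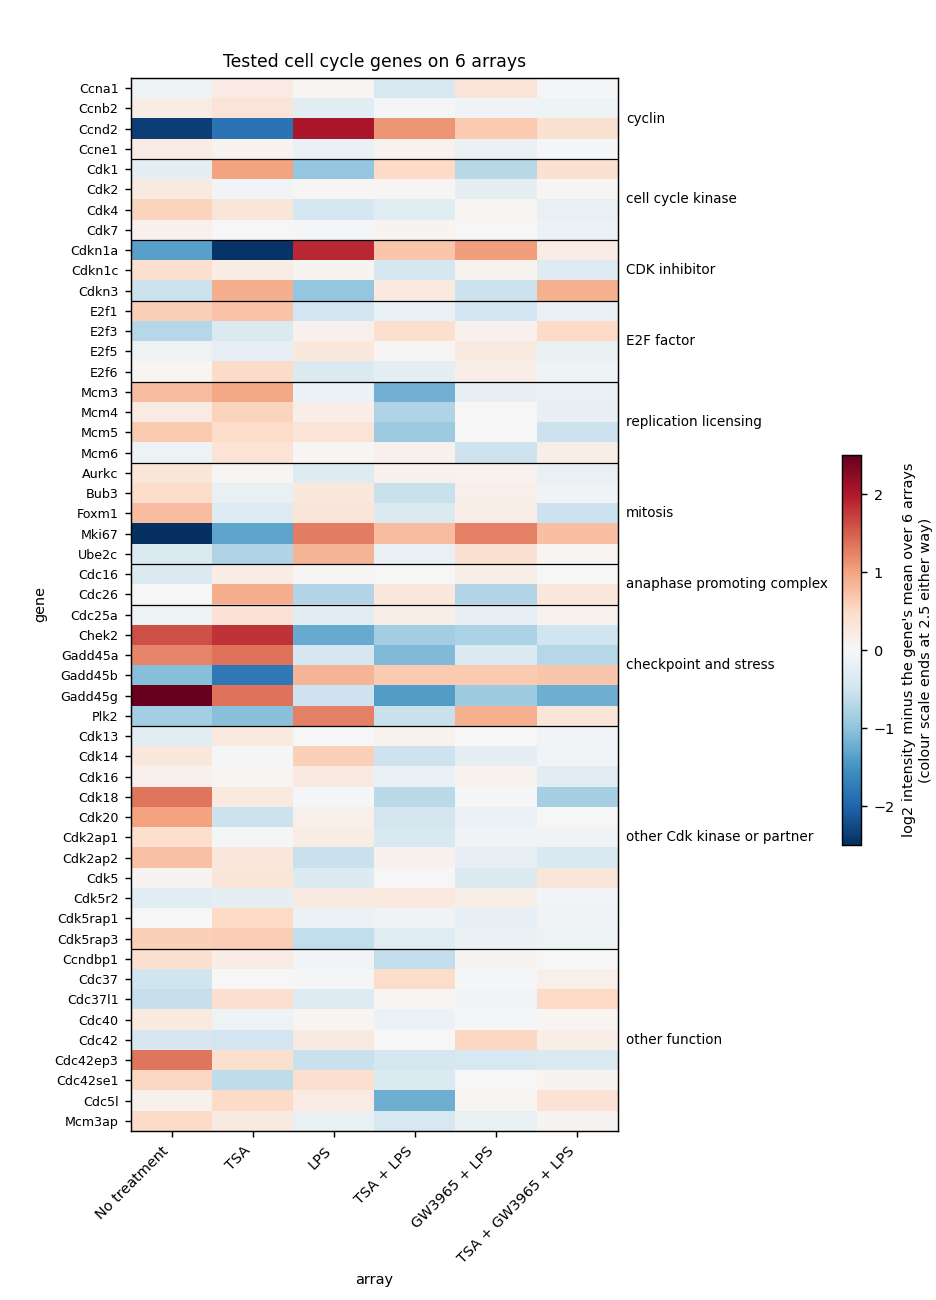
Log2 intensity of the 52 tested members (rows, grouped by role) on the 6 arrays (columns), shown as the difference from the gene's own mean over the arrays; red is above and blue below that mean, and the colour ends at 2.5. The contrast between arrays with and without LPS is clearest in Ccnd2, Cdkn1a, Mki67, Chek2 and the Gadd45 rows, and the alternation between arrays with and without TSA in Cdk1, Cdkn3 and Cdc26.

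TSA went with smaller differences, with 3 members that rose and 5 that fell, each in 3 of 3 pairs. Cdk1, the kinase that starts mitosis, Cdkn3, a phosphatase that acts on CDKs, and Cdc26, a subunit of the anaphase-promoting complex, rose. Cdkn1a, Plk2, Cdk18, Gadd45g and Foxm1 fell. Cdkn3 passed the level filter only through arrays with TSA, so its call follows in part from the filter. By limma 3 of 52 members rose (5.77%) and 5 fell (9.62%), beside 10.8% and 7.64% of all 4806 genes, so neither share stood far from that of all genes. The median effect of the 52 tested members was -0.14, beside 0.01 for all genes. Without the No treatment array 3 members rose and 2 fell, beside 7.51% and 5.78% of all genes, and without the TSA array 3 and 2, beside 7.34% and 5.89%.

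Cdk1 read 3.85 with No treatment and 9.07 with TSA, 2.33 with LPS and 6.45 with TSA + LPS, and 2.80 with GW3965 + LPS and 5.92 with TSA + GW3965 + LPS. All 3 arrays with TSA were above all 3 without it. Cdk1 rose by 1.26 (SE 0.21, limma adjusted p = 0.000836, higher in 3 of 3 pairs). Cdkn3 read 0.731 and 1.99, 0.541 and 1.24, and 0.724 and 1.96 in the same 3 pairs, without and with TSA. Its arrays with TSA were all above those without. Cdkn3 reached the array median only with TSA, so this separation follows in part from the level filter. Cdkn3 rose by 1.36 (SE 0.24, limma adjusted p = 0.00103), and by 0.79 with values floored at the array median (adjusted p = 0.0145). Cdc26 read 3.02 and 5.63, 1.80 and 3.58, and 1.81 and 3.56 in these pairs, again without overlap, and rose by 0.96 (SE 0.22, limma adjusted p = 0.00666). Of the A- and B-type cyclins that bind Cdk1, Ccna2 was not tested and Ccnb2 was not called for TSA (effect 0.13, SE 0.24, limma adjusted p = 0.762).

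The promoters of the 3 genes that rose are shown with the motifs that are known from late cell cycle genes, read on both strands: the cell cycle genes homology region or CHR (TTTGAA or TTCGAA), the CCAAT box (CCAAT) and the E2F site (TTTCGCGC or TTTGGCGC). Capitals mark matches. The stretches end at the base before the RefSeq start in GRCm38.p6, for Cdk1 on the minus strand of chr10:69352913-69353052, for Cdkn3 on the plus strand of chr14:46760386-46760540 and for Cdc26 on the minus strand of chr4:62408626-62408745. Mki67, on the minus strand of chr7:135716380-135716574, is added because it was the 1 member called for a difference in the TSA effect with and without LPS, a call that was lost in 2 of 9 alternatives.
Cdk1: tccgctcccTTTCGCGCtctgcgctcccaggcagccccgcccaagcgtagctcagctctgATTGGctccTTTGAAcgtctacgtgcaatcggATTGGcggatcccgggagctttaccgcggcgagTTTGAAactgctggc
Cdkn3: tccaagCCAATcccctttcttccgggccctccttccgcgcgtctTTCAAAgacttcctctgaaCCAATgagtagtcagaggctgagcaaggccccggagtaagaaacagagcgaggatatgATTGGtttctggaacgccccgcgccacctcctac
Cdc26: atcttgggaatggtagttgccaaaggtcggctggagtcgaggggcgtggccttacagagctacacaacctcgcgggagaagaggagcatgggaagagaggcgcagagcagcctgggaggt
Mki67: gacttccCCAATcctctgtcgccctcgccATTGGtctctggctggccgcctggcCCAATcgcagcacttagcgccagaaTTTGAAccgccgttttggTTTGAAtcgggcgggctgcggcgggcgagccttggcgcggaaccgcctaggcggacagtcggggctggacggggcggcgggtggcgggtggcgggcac
Cdk1 held CHR letters 71 and 15 bases before the start and an E2F site 131 bases before it, and Cdkn3 held CHR letters 111 bases before its start. Cdc26 held none of the 3 motifs in the stretch shown. In windows from 250 bases before to 50 after the start, CHR letters were present in 23 of 72 members with a promoter in the table (31.9%) and in 21.7% of all 27025 genes with one. The E2F site was present in 7 members (9.72%) and 0.929% of all genes, and the CCAAT box in 43 (59.7%) and 41.1%. These are matches of letters, not measured binding.

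Of the members that fell with TSA, Cdkn1a, whose readings are given above, fell by 1.04 (SE 0.22, limma adjusted p = 0.00359, lower in 3 of 3 pairs). The same gene rose with LPS in a fit on the same 6 arrays. Gadd45g fell by 0.84 (SE 0.24, limma adjusted p = 0.0224), with an adjusted p of 0.263 without the No treatment array and 0.254 without the TSA array. Foxm1 read 2.31 and 1.08, 1.67 and 1.06, and 1.52 and 0.930 without and with TSA in the 3 pairs, with no overlap. It fell by 0.82 (SE 0.24, limma adjusted p = 0.0233), and its adjusted p was 0.0516 to 0.207 when No treatment, TSA, GW3965 + LPS or TSA + GW3965 + LPS was left out. Leaving out either array of a pair removes that pair from the TSA effect. So the effect was -0.68 without No treatment and without TSA, and -0.88 without either array with GW3965. Cdk18 read 2.47 and 1.16, 0.956 and 0.613, and 0.964 and 0.548, and fell by 0.85 (SE 0.24, limma adjusted p = 0.0232), with an adjusted p of 0.0569 to 0.189 without those same arrays and an effect of -0.36 with values floored at the array median.

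Plk2 fell with TSA by 0.87 (SE 0.25, limma adjusted p = 0.0265, lower in 3 of 3 pairs), and this rested on the LPS pair. There Plk2 was 3.53-fold lower in TSA + LPS than in LPS, against 1.14-fold without LPS and 1.502-fold where GW3965 was present. Without the LPS array or the TSA + LPS array the effect was -0.39 (adjusted p = 0.244 and 0.228). Cyclin D2 was not called for TSA, with an effect of -0.24 (SE 0.27, limma adjusted p = 0.593), nor were Gadd45a, Gadd45b, Cdk2, Cdk4 and E2f1, with effects of -0.31, -0.30, -0.00, -0.12 and 0.24. Bub3, Ube2c and Mcm5 had effects of -0.56, -0.59 and -0.65 and did not pass (adjusted p = 0.0731, 0.0931 and 0.0943).

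**Figure D4:**
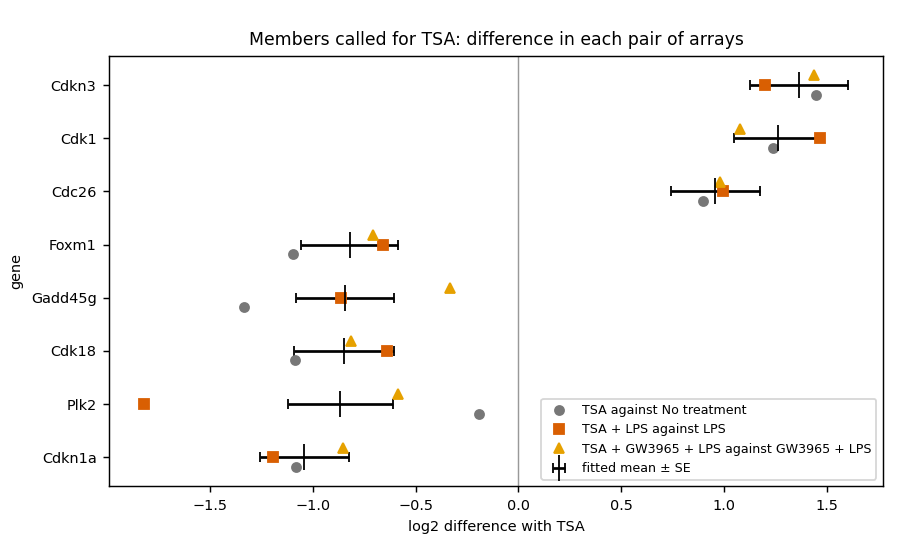
Log2 difference with TSA (horizontal axis) in each of the 3 pairs of arrays for the 8 members called for TSA, with the fitted mean and its standard error in black. The 3 pairs lie on the same side of 0 for each gene; Cdc26 has the closest pairs, and Plk2 the widest, from -1.82 in the LPS pair to -0.19 without LPS.

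By size, 3 of 53 measured members were at least 2-fold higher in TSA than in No treatment and 6 lower, beside 6.98% and 4.69% of all measured genes. In TSA + LPS against LPS 2 of 48 were higher and 6 lower, beside 7.57% and 9.55%, and in TSA + GW3965 + LPS against GW3965 + LPS 2 of 48 were higher and 0 lower, beside 4.83% and 1.13%. Cdk1 and Cdkn3 were among the higher genes in all 3 pairs. Cdk20, a kinase of the CDK family, was 2.90-fold lower with TSA and no LPS, 1.51-fold lower with LPS and 1.12-fold higher where GW3965 was present, and was not called. Cdc5l, a splicing factor named like a cell cycle gene, read 0.936 with TSA + LPS and 2.25 to 3.06 on the other 5 arrays.

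Whether TSA acted differently with and without LPS was tested by adding an LPS by TSA term to the model, which leaves 1 residual degree of freedom. Of 52 members 0 were called upward and 1 downward, Mki67, beside 0.0624% and 0.208% of all 4806 genes. Mki67 was 2.67-fold higher in TSA than in No treatment, 1.42-fold lower in TSA + LPS than in LPS and 1.43-fold lower in TSA + GW3965 + LPS than in GW3965 + LPS. The difference between these TSA effects was -1.93 on the log2 scale (SE 0.47, limma adjusted p = 0.0218). It had an adjusted p of 0.0970 without a trend in the prior variance and 0.700 with values floored at the array median. Plk2 had a difference of -1.01 and did not pass (limma adjusted p = 0.784), and Ccnd2 one of -1.12 (adjusted p = 0.9998).

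For GW3965 limma called 0 of 52 members in either direction, beside 0.0832% of all genes that rose and 0.0208% that fell, and 2 members had an unadjusted p under 0.05. These were Ccnd2 and Cdkn1a, named after their values were seen. The Ccnd2 effect was -1.06 (SE 0.34, limma adjusted p = 0.868, lower in 2 of 2 pairs) and the Cdkn1a effect -0.67 (SE 0.26, limma adjusted p = 0.9998). Ccnd2 passed without the TSA + LPS array, at -1.59 (adjusted p = 0.00434). By size 0 of 47 members were higher and 1, Ccnd2 at 2.62-fold, was lower in GW3965 + LPS than in LPS, beside 0.476% and 1.25% of all measured genes. In TSA + GW3965 + LPS against TSA + LPS 2 of 48 were higher and 0 lower, beside 1.75% and 0.577%, and these were Cdc5l and Mcm3, which both read lowest with TSA + LPS.

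Other genes of the cell cycle were read from a list of 88 symbols outside the symbol rule, of which 74 were on the array and 44 were tested. With TSA 7 rose (15.9%) and 2 fell (4.55%), beside 10.8% and 7.64% of all genes tested. Pttg1, which encodes securin, rose by 1.64 (SE 0.23, limma adjusted p = 0.000147), the retinoblastoma gene Rb1 by 1.31 (adjusted p = 0.000836) and the primase subunit Prim1 by 0.99 (adjusted p = 0.00815), each in 3 of 3 pairs. Max, the partner of Myc, fell by 1.21 and Skp2, which marks CDK inhibitors for destruction, by 0.84. Max reached the array median only with No treatment (1.32) and LPS (2.49), both without TSA, so its fall follows in part from the level filter. The list's median was 0.26, beside 0.01 for all genes. With LPS 5 rose and 5 fell (11.4% each), beside 12.5% and 6.76% of all genes. Rbl1, counted as risen, reached the array median only on arrays with LPS. Cep55, a protein of the midbody, rose by 5.10 (SE 0.26), Btg1, an antiproliferative factor, by 1.29 and Tpx2, a spindle factor, by 1.18. Gmnn, the inhibitor of origin licensing, fell by 1.83, the centromeric histone Cenpa by 1.73 and the clamp loader subunit Rfc2 by 1.30. The list's LPS median was -0.06, beside 0.04, and for GW3965 0 of 44 were called.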

How the data were processed

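RNA of 6 groups was measured on 1 biotin-labelled single-colour array each, from total RNA per the labels' protocols. The deposited values are intensities on a linear scale; their medians near 1 show that the authors had scaled them between arrays, by a method not given in the sources used here. Of 10076 probes 8983 carried 1 gene symbol, 1 several and 1092 none; a gene's brightest probe was used, and each of the 84 members has 1 probe. All 84 gene IDs were found in the RefSeq gene table, with 0 symbols changed. Rank correlations between arrays ran from 0.929 to 0.981, across genes. The fit used limma 3.58.1 in R 4.3.3 with an intensity trend (prior degrees of freedom 15.1). It was also run on simulated data with additive TSA effects and independent noise. That run checks the code and says nothing of the p-values of these arrays. With the LPS by TSA term the prior degrees of freedom were infinite, so that the variance came from the trend alone. Where some readings lay under the floor an effect is approximate, and a single pair's fold that uses a floored value is given as "at least". The members, roles, lists, motifs and settings were chosen with earlier results of these data known. Named members were the called ones, up to 15 per term by size, those that passed the LPS by TSA test, and a fixed set of cyclins, kinases, inhibitors, checkpoint and MCM genes; in the other lists the 3 highest and 3 lowest called genes per term were named. Alternatives changed the scaling, floor, level filter, probe choice, prior variance and size threshold, or left out an array. Plots were made in Python 3.11.15 (matplotlib 3.10.9). The number of arrays limits the precision.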

Additional observations from a re-analysis of the deposited data

Results flagged for a closer look

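Mki67 differed in its TSA effect between arrays without and with LPS by -1.93 on the log2 scale (SE 0.47, limma adjusted p = 0.0218 in the model with an LPS by TSA term). It read 1.65 with No treatment and 4.41 with TSA, but 26.7 with LPS and 18.8 with TSA + LPS. Without LPS the TSA effect rests on a single pair of arrays. The call was lost in 2 of 9 alternatives, and the LPS by TSA term was not fitted with an array left out.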

How the results depend on the processing

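Of 25 called member effects 12 kept their call in all alternatives in which they were tested and 13 lost it in at least 1; 0 changed sign. The TSA count of 8 was 5 without the No treatment array and 5 without the TSA array, and 7 to 9 otherwise. For TSA, leaving out either array of a pair gives the same effects, so such settings are not separate checks. The LPS count of 16 was 9 without the No treatment array and 13 to 20 otherwise. Leaving out either array with GW3965 does not change the LPS effects, only their error. For GW3965 the count of 0 was 1 without the LPS array (Cdc5l, upward) and 1 without the TSA + LPS array (Ccnd2, downward). For the LPS by TSA term the count of 1 was 0 with values floored at the array median and 0 without a trend in the prior variance. The 2-fold counts by pair changed with the threshold, by construction. At 1.5-fold the TSA counts were 15 (against No treatment), 18 (with LPS) and 8 (with GW3965 + LPS), the LPS counts 23 and 27 (with TSA), and the GW3965 counts 3 and 6 (with TSA). At 3-fold the TSA counts were 0, 1 and 0, the LPS count against No treatment 9, and the GW3965 counts 0 and 0. Quantile normalization gave 1 in TSA + GW3965 + LPS against GW3965 + LPS and 1 against TSA + LPS, where cyclic loess gave 1. Cdk2 had a TSA effect of 0.0166 after cyclic loess, against -0.0017 as reported, and was not called. No paired analysis was possible because each group holds replicate 1 only, so replicate numbers could not serve as a block; the fitted TSA effect is already the mean of the differences in its 3 pairs. Readings under the floor limit what can be said of the 32 untested members.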

Other observations

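Genes of the p53 and DNA damage response were read from a list of 48 symbols, of which 37 were on the array and 23 were tested. With LPS 2 rose (8.70%) and 6 fell (26.1%), beside 12.5% and 6.76% of all genes tested. Mdm4, counted as risen, reached the array median only on arrays with LPS, and Parp1, counted as fallen, only on arrays without it. These calls follow in part from the level filter. The death receptor Fas rose by 2.73 (SE 0.28, limma adjusted p = 8.37e-07), and Mdm4, an inhibitor of p53, by 0.95. Sesn1, a p53 target that restrains growth signalling, fell by 2.51 (SE 0.28), the repair scaffold Xrcc1 by 1.92 and Zmat3, another p53 target, fell by 1.499. So Cdkn1a and Fas rose with LPS while Sesn1 and Zmat3 fell. With TSA 4 rose (17.4%) and 1 fell (4.35%), beside 10.8% and 7.64% of all genes. Fas by 1.46, Zmat3 by 1.08 and Pmaip1, a promoter of apoptosis, by 0.97 were the highest, and the nuclease Aen fell by 0.83. Polk, also counted as risen with TSA, reached the array median only on arrays with TSA. The list's median was 0.05 with LPS and 0.20 with TSA, beside 0.04 and 0.01 for all genes. For GW3965 and for the LPS by TSA term 0 of 23 were called by limma.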
